A study of Mus musculus with 36 samples.

Results

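The 97 genes described here encode subunits and dedicated assembly factors of the mitochondrial oxidative phosphorylation system that are carried on nuclear chromosomes. They were chosen by name and not by any measured value: of the 21834 rows marked protein_coding among the 55358 rows of the count table, every row whose symbol begins with Nduf, Uqcr, Cox4, Cox5, Cox6, Cox7, Cox8 or Atp5 was taken, together with Sdha, Sdhb, Sdhc and Sdhd. Of the 97 genes, 90 had enough reads to be tested, among 15114 tested genes in all. The inhibitory factor of the ATP synthase is listed in the table as Atpif1, a symbol outside the rule, and is not among the 97.

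RNA was measured in 36 libraries of cultured murine keratinocytes, with 3 libraries in each of 12 groups. The cells were Pkp4-wildtype (WT), Pkp4-knockout (PKP4-KO) or Pkp4-knockout with a GFP-tagged PKP4 put back (Rescue), and each kind was kept in low (LCM) or high (HCM) calcium medium, with RNA taken after 24 h or 72 h. Calcium induces keratinocytes to form junctions and to differentiate. WT and PKP4-KO keratinocytes were primary cells of newborn pups from a mouse strain in which exon 9 of Pkp4 had been deleted in the germ line, on a C57BL/6J background, and all cells were grown on collagen I at 32 °C. Rescue cells were PKP4-KO keratinocytes infected with a lentivirus for human PKP4 fused to EGFP and selected with puromycin as a stable line, whereas the WT and PKP4-KO libraries are not labelled as carrying a vector. The labels do not say whether the 3 libraries of a group came from separate pups, lines or cultures, so the p-values measure the spread between these libraries, which may be technical.

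Oxidative phosphorylation couples the oxidation of NADH and succinate to ATP synthesis across the inner mitochondrial membrane. Complex I (Nduf genes) and complex II (Sdh genes) pass electrons to ubiquinone, complex III (Uqcr genes) passes them to cytochrome c, complex IV (Cox genes) reduces oxygen, and complex V (Atp5 genes) makes ATP from the proton gradient. Complexes I, III, IV and V also hold subunits encoded on the mitochondrial chromosome, whereas complex II is encoded wholly in the nucleus. Basal keratinocytes divide and depend strongly on glycolysis, and mitochondria are cleared late in the differentiation of the epidermis.

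All 37 genes of the mitochondrial chromosome, 13 of them protein-coding, were listed at 0 in every library, so the partner subunits encoded there could not be compared. The cause was not tested. The 97 nuclear genes lie on 19 chromosomes. In the reference annotation 9 of them overlap another gene on the same strand and 63 overlap one on the opposite strand. The libraries were strand-specific, but the strand setting of the read counting is not given in the sources used here, so reads of such neighbours may be included. A further 17 rows with the same prefixes are pseudogenes, and they held between 0.202% and 1.07% of the counts of the 97 genes. The protein_coding row Cox5b-ps carries the symbol of a pseudogene of Cox5b, and reads of near-identical copies may be split between the pair.

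The promoters of the genes were examined for 3 short motifs of factors known to act on respiratory or oxygen-regulated genes. In the RefSeq promoter table of build GRCm38.p6, 77 of the 97 genes had an entry, and 5 of them had 2 starts, which gave 82 promoters. The 250 bases before each start were searched on both strands. The motif of nuclear respiratory factor 1 (NRF1), which reads GCGCA, then any base, then GCGC, was found in 15 of the 82 promoters (18.3%), in 7.54% of the 13201 promoters of tested genes and in 3.74% of all 32851 promoters of the table. The ETS-type motif CCGGAAG, the core bound by GABP, was found in 17.1% of the promoters of the 97 genes, against 12.8% of those of tested genes. The core of the hypoxia response element, ACGTG, was found in 20.7% and 21.0%. A match of letters is a description and not a binding site. The 5 genes with an NRF1 match below are Sdhd, an anchor subunit of complex II, Cox6a1, a structural subunit of complex IV, the complex V subunits Atp5h and Atp5g2, and Ndufa8, an accessory subunit of complex I. They are shown with the motif in capitals, 5′ to 3′ on the strand of the gene, at their exact places in GRCm39. These are Sdhd at chr9:50515209-50515238 (−), Cox6a1 at chr5:115487160-115487189 (−) and chr5:115487115-115487144 (−), Atp5h at chr11:115310867-115310896 (−), Atp5g2 at chr15:102579505-102579534 (−) and Ndufa8 at chr2:35939361-35939390 (−). In Ndufa8 the motif lies on the opposite strand, so that the capitals are its reverse complement. The starts are those of the RefSeq table. In the reference annotation of GRCm39 the stretches shown for Atp5h, Atp5g2 and Ndufa8 lie within the annotated gene.
Sdhd: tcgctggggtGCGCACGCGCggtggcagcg
Cox6a1, first match: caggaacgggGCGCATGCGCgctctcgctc
Cox6a1, other match: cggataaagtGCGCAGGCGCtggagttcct
Atp5h: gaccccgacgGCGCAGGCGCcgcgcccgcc
Atp5g2: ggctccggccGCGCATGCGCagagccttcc
Ndufa8: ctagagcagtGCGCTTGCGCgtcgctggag

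For contrast, the 206 bases before the first annotated base of Atp5b, the catalytic β subunit of complex V, hold none of the 3 motifs. The 250 bases before its start in the RefSeq table, searched like those of the other genes, also held none. Atp5b is one of the genes with a higher level in PKP4-KO in every culture condition below. The stretch lies at chr10:127918926-127919131 (+) of GRCm39.
Atp5b: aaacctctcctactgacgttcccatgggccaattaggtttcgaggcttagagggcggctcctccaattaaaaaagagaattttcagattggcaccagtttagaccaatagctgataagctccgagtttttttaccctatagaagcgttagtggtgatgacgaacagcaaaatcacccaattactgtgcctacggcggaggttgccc

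Levels are given as CPM, the count of a gene relative to the total of its library, scaled with TMM factors that set libraries on a common scale under the assumption that most genes do not differ. Per kilobase of exon, with the mean over the 36 libraries, levels within each complex spanned a wide range. Cox8a, a small subunit of complex IV, stood at 576 CPM per kb, against 85.0 for Cox5a. In complex V, Atp5b stood at 391 CPM per kb and Atp5g1, a gene of the membrane ring, at 35.9. In complex III the range ran from 91.4 for Uqcrc2 to 270.2 for Uqcr10, and in complex II from 32.7 for Sdha, the flavoprotein, to 114 for Sdhd. Among the core subunits of complex I, Ndufv2 had 147 CPM per kb and Ndufs1 had 7.37, and among the accessory subunits Ndufc2 had 370.4 and Ndufb2 had 2.54. The order rests on the exon lengths of the table, and several levels were lower by more than 1.5-fold with the exon lengths of the reference annotation. In complex III, Uqcr10 then stood at 64.9 CPM per kb, with Uqcrb (190) highest and Uqcr11 (36.9) lowest.

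The isoforms of complex IV known from muscle, testis or lung were nearly absent. Of the 7 untested genes, Cox4i2, Cox6b2, Cox7b2, Cox8b and Cox8c had at most 9 counts in any library, and Ndufb11b and Atp5o.1 had 0 counts in every library. Cox6a2 and Cox7a1, the isoforms of heart and skeletal muscle, were tested but reached only 17 and 13 counts in their highest libraries. Per kilobase they stood at 0.321 and 0.498 CPM. Cox6a2 was called higher in PKP4-KO than in WT at 72 h from 0, 3 and 4 counts against 0, 0 and 0 in LCM and from 10, 2 and 9 against 0, 1 and 1 in HCM. The ubiquitous Cox6a1 lay at means of 178 CPM in WT and 234 CPM in PKP4-KO at 24 h LCM. The summed markers of adipocytes and muscle, which hold some of these isoforms, reached at most 1.16 CPM in a library. No marker of testis or lung was read. The summed markers of fibroblasts reached 11.5 CPM, of melanocytes 6.51 and of endothelial cells 5.41, against 23541 to 71889 CPM for the 9 keratinocyte markers. The summed immune markers lay between 6.77 and 178 CPM and were highest in Rescue libraries. In bulk RNA, fewer cells of a type and less RNA per cell cannot be told apart.

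The libraries held between 13602728 and 22467187 counts. Pkp4 lay at 33.4 to 76.3 CPM in the 12 WT libraries, at 6.40 to 14.1 in PKP4-KO and at 6.52 to 11.9 in Rescue, and the row of the GFP-PKP4 transgene at 0 to 8.12, 0.436 to 8.27 and 124.5 to 562 CPM. Library composition differed between groups. The TMM factor was 0.481 to 0.546 in the 3 PKP4-KO libraries of 72 h HCM and 0.705 to 1.39 in all others. In 7 further libraries, at most 1 in a group, it was below 0.9 times the median of the group, and these libraries also showed higher levels of short genes and of oxidative phosphorylation genes than the others of their group. The part of these differences in the results below was not tested beyond the values given beside them and under the processing alternatives.

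As a share of all counts, which needs no scaling factor, the 97 genes held between 0.975% and 2.59% of a library. The 3 PKP4-KO libraries of 72 h HCM held 2.38%, 2.58% and 2.59%. WT libraries of 72 h HCM held 1.45%, 1.36% and 2.08%, and Rescue libraries of 72 h HCM 1.03%, 0.997% and 1.07%. These 3 groups did not overlap. At 24 h LCM the share was 1.57% to 2.42% in PKP4-KO and 1.12% to 1.35% in WT, again without overlap, whereas at 24 h HCM the range of 1.49% to 2.43% in PKP4-KO overlapped that of 0.989% to 1.74% in WT. The 83 genes of the cytosolic ribosome moved with this share: they held 27.0% to 29.3% of the counts in PKP4-KO, 16.3% to 22.2% in WT and 11.3% to 12.6% in Rescue at 72 h HCM. Whether both shares moved for one reason was not tested.

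**Figure D1:**
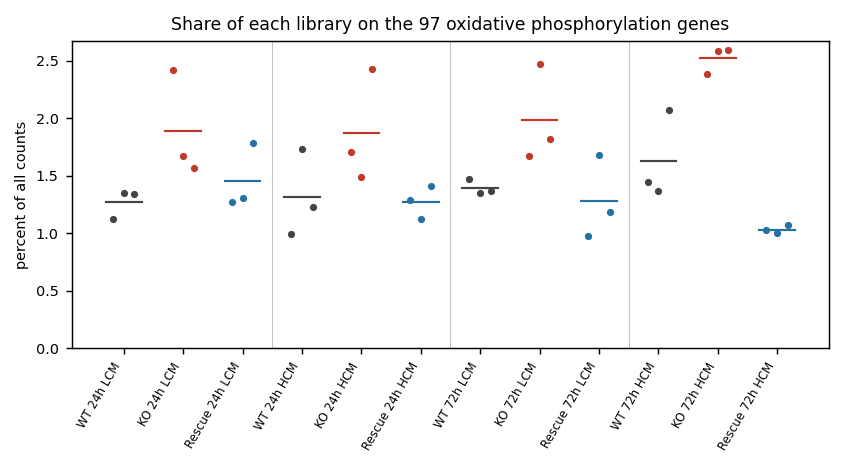
Share of all counts (percent, y axis) taken by the 97 oxidative phosphorylation genes in each of the 36 libraries, by group, with 1 point per library and a line at the mean of 3. The 3 PKP4-KO libraries of 72 h HCM, between 2.38% and 2.59%, lie above all WT and Rescue libraries of that condition.

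The comparison of PKP4-KO with WT in each culture condition asks how respiratory chain transcripts differ between these cells. PKP4-KO and WT cells also differed in a stretch of chromosome 4, described under other observations. None of the 90 tested genes was lower in PKP4-KO in any of the 4 conditions by edgeR or DESeq2, with 1 at an unadjusted p below 0.05 at 24 h HCM and 0 in the other conditions, and the number that was higher grew from 20 of 90 at 24 h HCM to 54 of 90 at 72 h HCM (edgeR's quasi-likelihood test, Benjamini-Hochberg adjusted p below 0.05). The complex II genes Sdhb and Sdhd, the complex III core protein gene Uqcrc1 and the complex V gene Atp5b were higher in all 4 conditions. At 24 h HCM the 20 genes are 22.2%, near the 20.7% of all tested genes called higher, and their number is thus no result about these genes. Without the 7 libraries with a low TMM factor, described above, 36 were higher and 1 lower there. At 24 h LCM 30 genes were higher (33.3%, against 19.7% of all tested genes), at 72 h LCM 37 (41.1%, against 21.3%) and at 72 h HCM 54 (60%, against 21.9%). The percentages of all tested genes called lower were 22.2%, 20.6%, 23.8% and 29.9% at 24 h HCM, 24 h LCM, 72 h LCM and 72 h HCM, and those called in either direction 42.8%, 40.2%, 45.1% and 51.8%. The median log2 fold change of the 90 genes was 0.38, 0.89, 0.93 and 1.14 in the same order, and that of all tested genes lay between −0.07 and 0.02. The libraries of PKP4-KO and WT did not overlap for 19 genes at 24 h HCM, 39 at 24 h LCM, 67 at 72 h LCM and 73 at 72 h HCM, against 46.7%, 50.6%, 55.2% and 58.2% of all tested genes, so that the share was below that of all genes at 24 h and above it at 72 h.

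These log2 fold changes are relative to the TMM scale. With total counts as library sizes the median of all tested genes in PKP4-KO against WT was −0.83 at 72 h HCM, and in LCM it was −0.35 at 72 h and −0.23 at 24 h. The genes called then numbered 20 higher and 7 lower at 72 h HCM, and in LCM 15 and 3 at 72 h and 23 and 1 at 24 h. Over all tested genes the share of calls that were higher then fell from 42.2% to 13.5% at 72 h HCM, from 47.3% to 25.7% at 72 h LCM and from 48.9% to 34.1% at 24 h LCM.

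By complex, the calls were spread unevenly over the conditions. Complex II had 2, 4, 4 and 3 of its 4 genes higher at 24 h HCM, 24 h LCM, 72 h LCM and 72 h HCM. The core subunits of complex I, which carry the flavin and the iron-sulphur clusters, had 3, 4, 5 and 4 of 7 higher in the same order. The 30 accessory subunits of complex I had 5, 8, 9 and 15, the 8 assembly factors named Ndufaf 4, 3, 4 and 5, the 8 complex III genes 2, 2, 2 and 5, and the 17 complex V genes 3, 7, 8 and 12. The 11 ubiquitous genes of complex IV had 0, 1, 2 and 7 higher. Their median log2 fold changes were 0.37, 0.88, 1.24 and 1.49, against 0.82, 0.88, 0.84 and 0.78 for complex II, so that at 72 h the genes of complex IV had the larger median and the smaller share of calls. The plot of log2 fold changes by complex shows, at 72 h, the larger and more scattered values of complex IV and of the accessory subunits of complex I beside the smaller and less scattered ones of complex II.

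**Figure D2:**
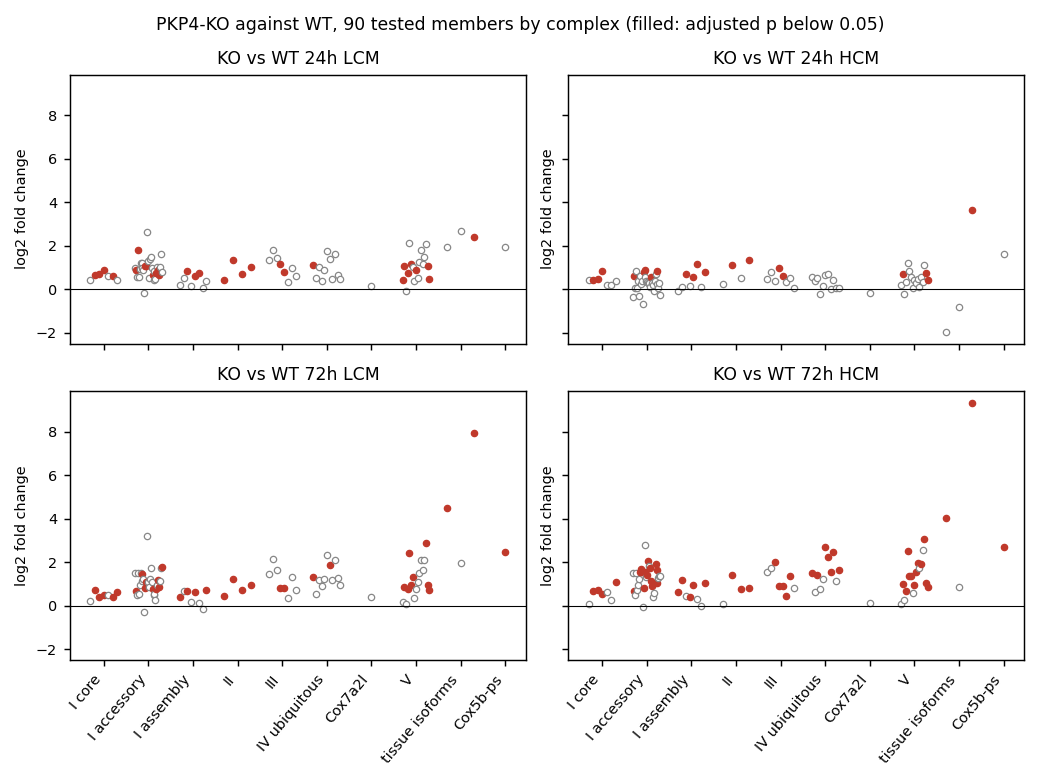
Log2 fold change of PKP4-KO against WT (y axis) for the 90 tested genes by complex (x axis), in the 4 culture conditions, with genes at an adjusted p below 0.05 as filled points. Filled points lie above 0 in each panel, 20 at 24 h HCM, 30 at 24 h LCM, 37 at 72 h LCM and 54 at 72 h HCM.

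Complex II oxidises succinate and is also an enzyme of the citric acid cycle. Its iron-sulphur subunit Sdhb stood at 93.4, 90.5 and 118 CPM in WT and at 284, 266 and 249.8 CPM in PKP4-KO at 72 h HCM. After 24 h in LCM it stood at 56.6, 75.8 and 79.9 CPM in WT and at 205, 181 and 159 CPM in PKP4-KO. The groups were far apart in both conditions, and the log2 fold change was 1.41 (SE 0.21, adjusted p = 3.2e-06) at 72 h HCM and 1.36 (SE 0.21, adjusted p = 6.8e-06) at 24 h LCM. At 24 h HCM and 72 h LCM Sdhb was higher by 1.11 and 1.24.

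Sdhd, a membrane anchor of complex II, was among the genes that varied least within groups, together with Ndufaf4 and Atp5b. At 24 h HCM it stood at 84.5, 94.6 and 99.1 CPM in WT and at 227, 246 and 226 CPM in PKP4-KO, a log2 fold change of 1.33 (SE 0.12, adjusted p = 6.7e-10). At 24 h LCM, 72 h LCM and 72 h HCM Sdhd was higher by 1.04, 0.97 and 0.82, without overlap of the groups. With an offset for gene length the value at 72 h HCM was 0.23 (adjusted p = 0.35), and without TMM factors it was 0.06. The gene overlaps Timm8b, an import factor of the intermembrane space, on the opposite strand, and Timm8b was higher at 72 h, by 1.24 in LCM and 2.00 in HCM, with values of 0.90 and 0.37 at 24 h that did not pass the test.

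The other anchor gene, Sdhc, was higher at 24 h LCM (0.72), 72 h LCM (0.70) and 72 h HCM (0.75), and its value of 0.53 at 24 h HCM did not pass the test. Sdha, which carries the flavin, differed less. It stood at 107, 118 and 121 CPM in WT and at 127, 174 and 165 CPM in PKP4-KO at 24 h LCM, a log2 fold change of 0.43 (SE 0.17, adjusted p = 0.049). At 72 h LCM Sdha was higher by 0.44, and at 24 h and 72 h HCM its values of 0.25 and 0.06 did not pass the test. The difference between Sdha and the other complex II genes was not tested.

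Atp5b of complex V stood at 1012, 1086 and 1420.0 CPM in WT and at 2229, 2495 and 2388 CPM in PKP4-KO at 72 h HCM. After 24 h in HCM it stood at 1195, 1304 and 1349 CPM in WT and at 2129, 2102 and 2144 CPM in PKP4-KO. The groups did not overlap, and the log2 fold change was 1.02 (SE 0.13, adjusted p = 3e-07) at 72 h HCM and 0.73 (SE 0.13, adjusted p = 3.9e-05) at 24 h HCM. Without TMM factors the value at 72 h HCM was 0.27. Atp5b was also higher at 24 h LCM (1.06) and at 72 h LCM (0.88). Atp5a1, which encodes the α subunit that pairs with the product of Atp5b, had 795, 832 and 728 CPM in WT and 804, 817 and 878 CPM in PKP4-KO at 72 h HCM, a log2 fold change of 0.09 that did not pass the test.

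In all, 17 of the 90 genes were higher in PKP4-KO in each of the 4 conditions. The share of all tested genes higher in all 4 was not taken, so this number is no result about these genes. Those of complex I included the core genes Ndufs3 and Ndufs7, the accessory genes Ndufa9, Ndufa10, Ndufab1, Ndufb5 and Ndufc2 and the assembly factor Ndufaf5. Outside complex I they were Sdhb and Sdhd of complex II, Uqcrc1 and Uqcrc2 of complex III, Atp5b, Atp5o and Atp5pb of complex V, and Ndufa4l2. The 4 conditions have separate libraries, but the labels do not say whether the cells were separate, so they may not be independent repeats. Ndufs3, Ndufs7 and Ndufa10 had smaller values, between 0.42 and 0.90, and at 72 h HCM their sign turned without TMM factors (−0.02, −0.21 and −0.10). Ndufaf5 had values of 0.57 to 0.97, and the median of the tested genes within 5 Mb of it was 0.88 at 24 h HCM, 0.64 at 24 h LCM, 0.84 at 72 h LCM and 0.39 at 72 h HCM. With this median subtracted Ndufaf5 turned to −0.30 at 24 h HCM and, in LCM, to −0.01 at 24 h and −0.22 at 72 h. Of the promoters of these genes, 14 were in the table, and 1 of them held the NRF1 motif.

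Uqcrc1, a core protein of complex III, stood at 249, 328 and 353 CPM in WT and at 812, 671 and 582 CPM in PKP4-KO at 24 h LCM. The groups were apart, with a log2 fold change of 1.15 (SE 0.17, adjusted p = 4.6e-06), and Uqcrc1 was higher by 0.98, 0.80 and 0.92 at 24 h HCM, 72 h LCM and 72 h HCM. Without TMM factors its value at 72 h HCM was 0.20. Ndufc2 of complex I stood at 265, 244 and 305 CPM in WT and at 735, 954 and 868 CPM in PKP4-KO at 72 h HCM. This is a log2 fold change of 1.65 (SE 0.29, adjusted p = 2.6e-05), against 0.83 to 1.19 in the other 3 conditions.

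Complex IV genes showed a wide spread between libraries of the same group. Cox6c, a small structural subunit, stood at 173, 134 and 754 CPM in WT and at 1993, 2737 and 2221 CPM in PKP4-KO at 72 h HCM, a log2 fold change of 2.71 (SE 0.98, adjusted p = 0.023). The 3 PKP4-KO libraries were higher than every WT library. At 24 h HCM Cox6c stood at 56.5, 487 and 75.2 CPM in WT and at 143, 116 and 727 CPM in PKP4-KO, and the groups overlapped. The highest library of each group at 24 h HCM and of WT at 72 h HCM was 1 of the 7 with a low TMM factor. The call at 72 h HCM was lost without WT replicate 1 or 2. Cox7a2l, a factor that joins complexes III and IV, did not pass the test in any condition (−0.15, 0.15, 0.37 and 0.14 at 24 h HCM, 24 h LCM, 72 h LCM and 72 h HCM), and the sign of each value turned under at least 1 alternative.

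**Figure D3:**
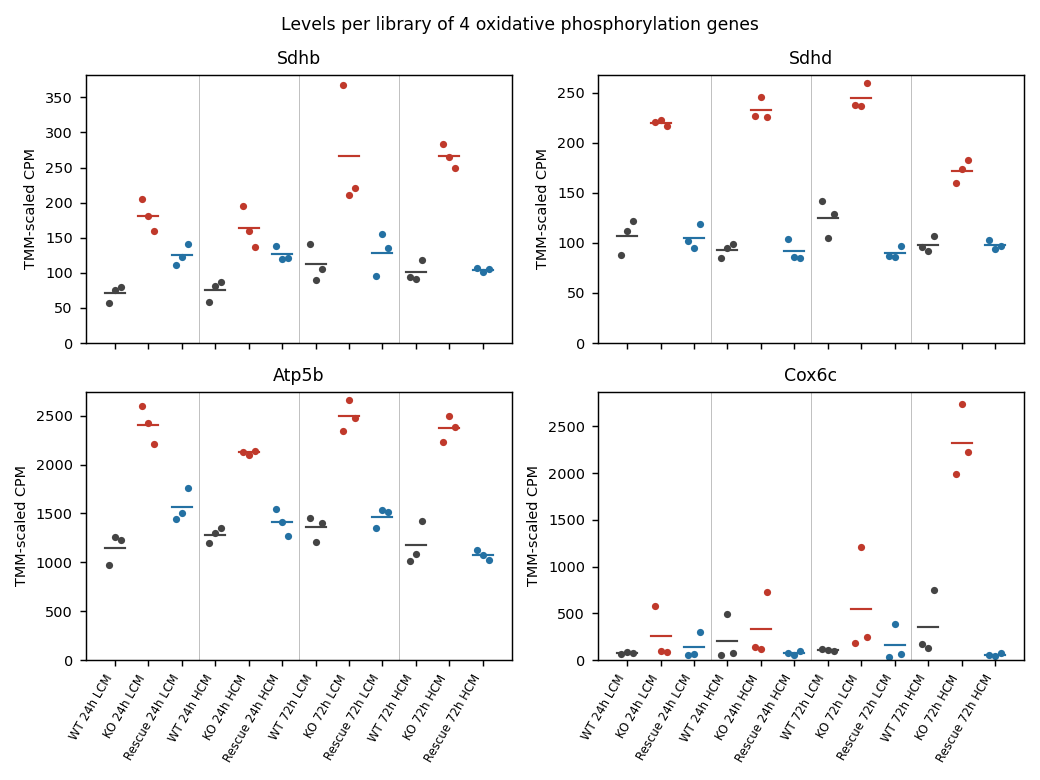
TMM-scaled CPM (y axis) of Sdhb, Sdhd, Atp5b and Cox6c in the 36 libraries by group, with 1 point per library and a line at the mean of 3. Sdhb, Sdhd and Atp5b are higher in PKP4-KO than in WT in all 4 conditions without overlap, whereas Cox6c varies up to severalfold within a group and reaches 1993 to 2737 CPM in PKP4-KO at 72 h HCM.

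The spread within groups was larger for these genes than for the rest of the transcriptome. The SD of log2 levels within groups had a median of 0.497 over the 90 genes and of 0.296 over all tested genes, on the scale of log2(CPM + 0.5). It ran from 0.133 for Ndufaf4 and 0.136 for Sdhd to 1.80 for Ndufb1. The 90 genes are short, with a median exon length of 1631 bases against 3825 over all tested genes, and across them shorter genes varied more (Spearman's rho = −0.45, n = 90 genes, which share libraries and are not replicates). Across all tested genes rho was −0.23.

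Exon length also went with the size of the difference. At 72 h HCM, for PKP4-KO set against WT, Spearman's rho of length and log2 fold change was −0.27 over the 90 genes and −0.37 over all 15114, and in Rescue against PKP4-KO at 72 h HCM it was 0.46 and 0.48. The 41 genes shorter than 1500 bases had medians of 1.36 and −3.17 in these comparisons, and the 49 longer ones 0.97 and −1.75. With an offset for gene length in the model, 46 genes were higher and 2 lower in PKP4-KO at 72 h HCM, with a median log2 fold change of 0.80. Without the 7 libraries with a low TMM factor, an alternative chosen after seeing the data, 82 were higher and none lower at 72 h HCM (median 1.5), 58 at 72 h LCM (median 0.62), and at 24 h LCM 31 were higher and 2 lower (median 0.29) instead of 30 and 0 (median 0.89).

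**Figure D4:**
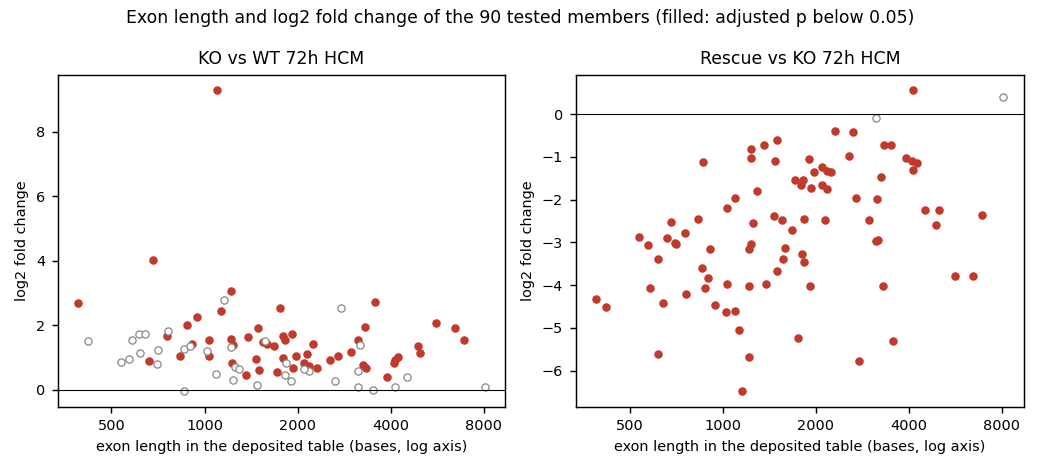
Log2 fold change (y axis) against exon length in bases (x axis, log scale) for the 90 tested genes, in PKP4-KO against WT and in Rescue against PKP4-KO at 72 h HCM, with genes at an adjusted p below 0.05 as filled points. Shorter genes lie higher in the first panel (medians 1.36 below 1500 bases and 0.97 above) and lower in the other (−3.17 and −1.75).

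Rescue cells were compared with PKP4-KO and with WT to see how these transcripts stood in cells that express PKP4 again. PKP4-KO and Rescue cells differed by more than PKP4, however. In a stretch of chromosome 4 the median log2 fold change of 45 tested genes against WT was 2.13 to 2.29 in PKP4-KO. In Rescue it was −0.11 to 0.01. The part of PKP4 and that of such other differences cannot be told apart. The comparisons within a condition share libraries, and each is therefore given by its own values. At 72 h HCM nearly all genes were lower in Rescue than in PKP4-KO: 87 of 90 were lower (against 29.5% of all tested genes called lower and 66.7% in either direction) and only Sdha was higher, with a median log2 fold change of −2.54, against 0.20 over all tested genes. With an offset for gene length 80 were lower and 0 higher, so that the call of Sdha was lost. At 72 h LCM 41 were lower and none higher, also by DESeq2 and at an unadjusted p below 0.05 (lower in 18.3% of all tested genes, median −0.93). This number was 27 without Rescue replicate 1, 81 without Rescue replicate 2 and 83 without the 7 libraries with a low TMM factor. At 24 h 16 were lower in HCM and 16 in LCM, which is 17.8% of the genes, near the 19% and 15.5% of all tested genes called lower. The libraries of Rescue and PKP4-KO did not overlap for 24 genes at 24 h HCM, 20 at 24 h LCM, 35 at 72 h LCM and 89 at 72 h HCM, against 51.2%, 41.6%, 42.5% and 75.5% of all tested genes. The 1 gene higher at 24 h HCM was Cox6a2, named here after its values were seen, with 3, 16 and 6 counts in Rescue and 0 in each PKP4-KO library.

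Against WT, Rescue cells were also low at 72 h HCM. Of the 90 genes 64 were lower (against 16.7% of all tested genes called lower and 36.2% in either direction) and 2 were higher, Ndufa4l2 and Sdha, with a median of −1.41. In the other conditions fewer genes differed from WT: 6 higher and 1 lower at 24 h HCM, 9 and 1 at 24 h LCM, and 2 and 9 at 72 h LCM, with 23.2%, 24.8% and 32.4% of all tested genes called in either direction. At 72 h LCM 3 were higher and 55 lower without the 7 libraries with a low TMM factor, 1 of which is a Rescue library of that condition. The libraries of Rescue and WT did not overlap for 14 genes at 24 h HCM (35.1% of all tested genes) and for 80 at 72 h HCM (52.8%). Without TMM factors the median of all tested genes at 72 h HCM was 1.37 in Rescue against PKP4-KO and 0.46 in Rescue against WT, and the share of calls that were higher rose from 55.8% to 84.7% and from 53.9% to 80.1%. The 90 genes then had 9 higher and 62 lower against PKP4-KO, with a median of −1.37, and 7 higher and 49 lower against WT, with a median of −0.97. By complex, Rescue against PKP4-KO at 72 h HCM had all 30 accessory and 6 of 7 core genes of complex I, all 8 of complex III, all 11 ubiquitous genes of complex IV and 16 of 17 of complex V lower, and 3 of 4 of complex II.

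Among the genes lower in Rescue at 72 h HCM, the largest differences were those of small subunits. Ndufb1, an accessory subunit of complex I, stood at 8.80, 7.67 and 10.4 CPM in Rescue and at 638, 922 and 849.9 CPM in PKP4-KO, a log2 fold change of −6.49 (SE 1.75, adjusted p = 0.002). In WT it had 27.2, 20.8 and 306 CPM, and the third of these libraries is 1 of the 7 with a low TMM factor. Atp5md and Atp5mpl, small membrane proteins of complex V, were lower in Rescue than in PKP4-KO by −5.78 and −5.69. Against WT the 3 largest among the genes called lower were Atp5k (−3.88), Ndufa3 (−3.42) and Atp5md (−3.24), whereas Ndufa4l2 was higher by 4.71. With WT replicate 3 left out, 29 instead of 66 genes were called in Rescue against WT at 72 h HCM, and with Rescue replicate 1 or 2 left out 38 and 34.

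Sdhd, Sdhb and Sdha show how members of one complex stood in Rescue. Sdhd had 102, 94.7 and 119 CPM in Rescue at 24 h LCM, within the range of 87.9 to 122 CPM in WT and below the 217 to 223 CPM of PKP4-KO, with log2 fold changes against PKP4-KO of −1.07 in LCM and −1.35 in HCM at 24 h, and of −1.44 in LCM and −0.81 in HCM at 72 h. The value at 72 h HCM turned to 0.36 without TMM factors and to 0.13 with an offset for gene length. Sdhb was lower in Rescue than in PKP4-KO by −0.54 at 24 h LCM, −1.05 at 72 h LCM and −1.35 at 72 h HCM, and it was higher than in WT by 0.82 at 24 h LCM and 0.74 at 24 h HCM. In Rescue against WT the median of the tested genes within 5 Mb of Sdhb was 0.52 at 24 h LCM and 0.42 at 24 h HCM. With this median subtracted, 0.30 and 0.32 remained for Sdhb. Sdha had 153, 146 and 138 CPM in Rescue at 72 h HCM, above the 101, 84.9 and 108 CPM of PKP4-KO (0.57, SE 0.17, adjusted p = 0.0052) and the 93.3, 111 and 77.3 CPM of WT (0.63, SE 0.17, adjusted p = 0.0053). The median of the tested genes within 5 Mb of Sdha was 0.47 against PKP4-KO and 0.46 against WT. With this median subtracted, Sdha stood at 0.10 and 0.17.

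Of the assembly factors, Ndufaf6 and Ndufaf4 stood out in the Rescue comparisons. Ndufaf6 had 5.71, 7.45 and 7.0 CPM in Rescue, 15.8, 15.4 and 12.6 in PKP4-KO and 5.97, 6.10 and 7.69 in WT at 24 h HCM, with a log2 fold change of −1.12 in Rescue against PKP4-KO and of 1.15 in PKP4-KO against WT. PKP4-KO lay above both other groups without overlap. Ndufaf4 was lower in Rescue than in WT at 24 h, by −0.66 in HCM and −0.50 in LCM. With the median of the genes within 5 Mb subtracted, the value in HCM was −0.06 and that in LCM turned to 0.25. At 72 h LCM the largest differences were taken among called genes with at least 1 CPM and no overlap of the groups. From PKP4-KO, Rescue differed most in Ndufa4l2 (−3.86), Cox7b (−1.82) and Ndufc2 (−1.65). From WT it differed most in Ndufa4l2 (4.09), Ndufb6 (−0.91), Cox7a2l (−0.84) and Ndufaf6 (−0.79). The highest value of any of the 90 genes against WT was 6.14, in a gene outside these limits. With the median of the genes within 5 Mb subtracted, Ndufb6 stood at −0.28 and Cox7a2l at −0.59 against WT, and Ndufaf6 turned to 0.05.

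Ndufa4l2 had the largest difference between PKP4-KO and WT at 72 h among the 90 tested genes, in LCM and in HCM. Its product resembles NDUFA4, a subunit of complex IV once counted to complex I, and it is known as a target of the hypoxia-inducible factor HIF-1. In WT it was at the limit of detection, with 5, 2 and 4 counts at 24 h LCM and 1, 2 and 1 at 24 h HCM. In WT at 72 h it stood at 0.852, 0.475 and 0.545 CPM in LCM and at 0.295, 0.470 and 0.410 CPM in HCM. PKP4-KO cells at 72 h had 138, 244 and 81.4 CPM in LCM and 305, 269.7 and 180.4 CPM in HCM, and Rescue cells 5.42, 20.5 and 6.35 CPM in LCM and 10.2, 12.6 and 8.23 CPM in HCM. The 3 kinds of cells did not overlap at 72 h in either medium, with PKP4-KO highest and WT lowest.

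The log2 fold change of Ndufa4l2 in PKP4-KO against WT was 9.31 (SE 0.70, adjusted p = 1.3e-11) at 72 h HCM and 7.95 (SE 0.64, adjusted p = 4.9e-11) at 72 h LCM. At 24 h PKP4-KO cells had 2.04, 0.502 and 0.843 CPM in LCM and 0.745, 0.669 and 1.92 CPM in HCM, without overlap with WT. The summed counts of 58 in PKP4-KO and 4 in WT at 24 h HCM give a ratio of 13.0 on the TMM scale (exact 95% interval 4.83 to 49.4, for counting error only), and 57 and 11 counts at 24 h LCM give 5.16 (2.68 to 10.9). The fitted log2 fold changes were 3.66 (SE 1.0, adjusted p = 0.0036) and 2.40 (SE 0.82, adjusted p = 0.021), and the latter call was lost without PKP4-KO replicate 1 (1.73, adjusted p = 0.15). Rescue against PKP4-KO differed by −4.60 at 72 h HCM, and Rescue against WT by 4.71. The gene overlaps Shmt2 on the opposite strand, and the part of its reads was not tested.

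The counterpart Ndufa4 had a different pattern. At 72 h HCM it stood at 403, 356 and 827 CPM in WT, 1532, 1839.6 and 1591 CPM in PKP4-KO and 93.5, 93.6 and 129 CPM in Rescue, so that Rescue lay below WT. At 24 h LCM its 147 to 228 CPM in WT overlapped the 162 to 475 CPM of PKP4-KO. In WT, Ndufa4 exceeded Ndufa4l2 in CPM in every library, and the plot of both genes shows the gap narrowing in PKP4-KO at 72 h.

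**Figure D5:**
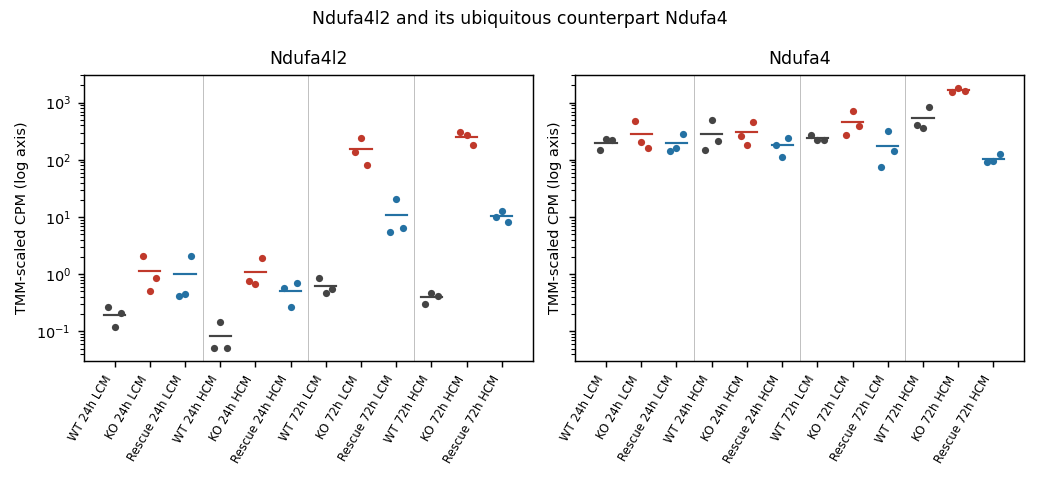
TMM-scaled CPM (y axis, log scale) of Ndufa4l2 and Ndufa4 in the 36 libraries by group, with 1 point per library and a line at the mean of 3. Ndufa4l2 lies below 1 CPM in all WT libraries and at 81.4 to 305 CPM in the 6 PKP4-KO libraries of 72 h, with Rescue libraries of 72 h at 5.42 to 20.5 CPM.

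Between HCM and LCM the calls differed by kind of cell and time. In WT 1 gene was higher and none lower in HCM against LCM at 24 h (14.2% of all tested genes called), and 3 were higher and 3 lower at 72 h (21.4%). In PKP4-KO none was called at 24 h by edgeR (2.83% of all tested genes), with 6 at an unadjusted p below 0.05 and 1 called by DESeq2. At 72 h 20 were higher (22.2%, against 12.9% of all tested genes) and 4 lower (32.6% of all tested genes called in either direction). The libraries of both media did not overlap for 73 genes in PKP4-KO (46.2% of all tested genes) and for 47 in WT (39%) at 72 h. Without TMM factors the direction of the calls in PKP4-KO at 72 h turned, with 3 genes higher and 22 lower and a median of all tested genes of −0.77, and without the 7 libraries with a low TMM factor 65 were higher and 7 lower. In Rescue 1 was higher at 24 h and 7 were lower at 72 h (12% and 24.9% of all tested genes called). The shares of genes called in WT and Rescue were below those of all tested genes.

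The 1 gene that rose with calcium in WT at 24 h was the assembly factor Ndufaf4, at 41.5, 43.3 and 43.4 CPM in LCM and 58.7, 53.9 and 54.9 CPM in HCM (0.39, SE 0.12, adjusted p = 0.028). In WT at 72 h Cox6a1 (1.58), Ndufb9 (0.76) and Ndufs4 (0.67) were higher and Atp5a1 (−0.55) and Ndufaf7 (−0.42) lower in HCM. In PKP4-KO at 72 h the largest were Ndufa4 (1.85), Ndufb4 (1.82) and Ndufc1 (1.78) among those higher, and Sdha (−0.76), Atp5a1 (−0.63) and Sdhd (−0.51) among those lower. Atp5a1 stood at 1367, 1105 and 1387 CPM in LCM and 804, 817 and 878 CPM in HCM there, without overlap. In Rescue at 72 h Ndufaf3 (−1.14), Ndufaf7 (−0.82) and Uqcrc1 (−0.58) were lower in HCM, and at 24 h Atp5pb was higher (0.45).

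The difference of the calcium response between PKP4-KO and WT was tested as an interaction. None of the 90 genes passed at 24 h or at 72 h by edgeR (4.02% and 5.74% of all tested genes), none had an unadjusted p below 0.05, and DESeq2 called 0. Without the 7 libraries with a low TMM factor 50 passed at 72 h. That PKP4-KO had 24 calls at 72 h and WT 6 is thus not shown to be a difference of these genes.

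Time in culture went with the most calls in PKP4-KO cells in HCM, where 64 genes were higher and 6 lower at 72 h against 24 h (higher in 24.3% of all tested genes, with 55.8% called in either direction, and a median of 1.48). Without TMM factors the median of all tested genes was −1.16 there, and the calls were 18 higher and 23 lower, so that their direction was no longer mostly upward. In PKP4-KO in LCM 9 were higher (26.1% of all tested genes called in either direction), in WT 4 were higher in LCM (9.96%) and 9 higher and 1 lower in HCM (17.8%), and in Rescue 1 was higher in LCM (9.81%) and 2 higher and 10 lower in HCM (24.3%). In PKP4-KO in HCM the largest were Ndufa4l2 (7.91), Ndufv3 (2.86) and Cox6c (2.82), and Ndufs1 (−0.74), Sdhd (−0.44) and Ndufaf4 (−0.34) were lower. For Ndufaf4 the sign turned with the median of the genes within 5 Mb subtracted (0.62).

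Several genes were higher at 72 h in more than 1 kind of cell. Ndufa4l2 was higher at 72 h in Rescue, by 4.32 in HCM and 3.54 in LCM, and in PKP4-KO in LCM by 7.16. Cox7a2l rose with time in HCM in WT by 1.17 and in Rescue by 0.60, and in PKP4-KO by 0.81 in LCM and 1.46 in HCM. In WT it stood at 116, 209.7 and 169.6 CPM at 24 h and at 336, 307 and 469 CPM at 72 h in HCM, without overlap. Ndufb9 rose in WT in HCM by 1.01 and in PKP4-KO in LCM by 0.76, and Ndufaf8 rose in WT in HCM by 0.95. In WT in LCM Sdhb (0.66), Atp5o (0.63) and Ndufb5 (0.59) were higher, and in WT in HCM Ndufaf4 was lower (−0.57). In Rescue in HCM Ndufaf3 (−1.11), Ndufaf7 (−0.87) and Ndufv2 (−0.72) were lower.

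Whether the effect of the knockout itself changed from 24 h to 72 h was tested as well. In LCM 1 gene passed, Ndufa4l2 (5.25% of all tested genes), and in HCM 4 passed (26.6% of all tested genes), Ndufa4l2 and Ndufaf1 with a higher and Ndufaf6 and Sdhd with a lower value at 72 h. The shares of 1 and 4 in 90 are below those of all tested genes. Sdhd was named here after its values were seen. This count depends on the libraries and the scale: in HCM 55 genes were higher and 2 lower without the 7 libraries with a low TMM factor, when 6209 of the 15114 tested genes were called, and 1 was higher and 17 lower without TMM factors.

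Related genes of the mitochondrion were read from lists of other assembly factors, electron carriers, regulators, citric acid cycle enzymes, import machinery and mitochondrial ribosomal proteins. Of 77 tested mitochondrial ribosomal protein genes 34, 47, 47 and 49 were higher and none lower in PKP4-KO than in WT at 24 h HCM, 24 h LCM, 72 h LCM and 72 h HCM, the order used for all lists here. Of 22 import genes 13, 14, 15 and 15 were higher, with 1 lower at 72 h HCM. Of 16 citric acid cycle genes 9, 10, 9 and 5 were higher and 1 lower in each condition. Of 44 other assembly factors 16, 18, 17 and 18 were higher and 3, 3, 3 and 6 lower, and of 10 carriers and related genes 4, 5, 5 and 5 were higher and 1 lower in each. The background shares of 19.7% to 21.9% higher and 20.6% to 29.9% lower are those given above.

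Of the carriers, Cyc1, the cytochrome of complex III, was higher by 0.92, 1.31, 1.08 and 1.24, and Cycs, cytochrome c, by 1.27, 1.28, 1.75 and 2.52 at 24 h HCM, 24 h LCM, 72 h LCM and 72 h HCM. In the citric acid cycle and at its entry Pdhb was higher by 1.46 at 72 h HCM, whereas Pdha1 was lower in all 4 conditions, by −0.65, −0.68, −0.86 and −1.09. Tomm5, a small subunit of the outer membrane translocase, was higher by 1.55, 1.81, 1.91 and 2.41. Coa7, an assembly factor of complex IV, was higher by 3.11, 3.62, 3.67 and 4.43 and Mrpl37, a mitochondrial ribosomal protein gene, by 2.85, 3.07, 2.83 and 3.16, and both lie in a stretch of chromosome 4 where most tested genes had higher values in PKP4-KO.

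The regulators of mitochondrial biogenesis did not share 1 direction. Of 19 tested regulators 8, 4, 3 and 1 were higher and 1, 0, 0 and 7 lower at 24 h HCM, 24 h LCM, 72 h LCM and 72 h HCM. Ppargc1b, a coactivator of respiratory genes, was higher by 1.49, 1.05 and 1.24 in the first 3 of these, and its value of −0.22 at 72 h HCM did not pass the test. Nrf1 was higher by 0.45, 0.29 and 0.40 in the same 3, with 0.17 at 72 h HCM. Tfam, which packages and transcribes mitochondrial DNA, was higher at 24 h HCM (1.06) and not called at 24 h LCM (0.38), 72 h LCM (0.48) or 72 h HCM (0.14). Esrra was lower at 24 h HCM (−0.44) and 72 h HCM (−0.48), Gabpa was lower at 72 h HCM (−1.32), and Ppargc1a had too few reads to be tested. At 72 h HCM none of Ppargc1b, Nrf1 and Tfam passed the test. Any link between the regulators and the 90 genes was not tested.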

How the data were processed

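RNA of 36 libraries of mouse keratinocytes, 3 in each of 12 groups, was sequenced by the authors as strand-specific poly(A) libraries with paired ends. According to the study and the submitters' processing notes, the authors aligned reads with HISAT2 2.1.0 to the mm39 genome extended by the GFP-PKP4 construct, filtered with SAMtools 1.10 and counted with featureCounts 2.0.0. The deposited values are raw counts per gene. The strand and multimapping settings of the counting are not given in the sources used here.

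Groups were taken from the labels. Genes passing edgeR's filterByExpr (15114) were fitted with edgeR 4.0.16 in R 4.3.3: TMM factors, 1 mean for each of the 12 groups, the quasi-likelihood test with 24 residual degrees of freedom, 24 contrasts and 4 interactions. P-values were adjusted by Benjamini-Hochberg over all tested genes, with a threshold of 0.05. The code was tested on simulated data. Depth was 13602728 to 22467187 counts per library. Intervals cover counting error only. No 2 libraries of the same group agreed within sampling noise. Promoters were those of the RefSeq table of GRCm38.p6, placed on GRCm39 by exact match.

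The genes and lists were chosen with earlier results of these data known. Genes were named by rule: tissue isoforms and their counterparts, the 3 largest calls per comparison and direction with at least 1 CPM and no overlap, the highest and lowest levels per length in each complex, genes called alike in all 4 comparisons of PKP4-KO with WT, the complex II genes with Cox7a2l, the 3 largest in each interaction, and landmark genes and the largest calls of the related lists. Sdhd in the interaction, and Sdhb and Sdhd in Rescue comparisons where they are not among the 3 largest, were named after their values were seen. Some genes that the rule names are not reported here. The alternatives were library sizes without TMM factors, DESeq2 1.42.0, no filter, at least 10 counts in every library, fits of the compared groups alone, each replicate left out, a replicate block, an offset for gene length, exon lengths of the reference annotation, subtraction of the median of genes within 5 Mb and, chosen after seeing the data, the block with the offset and the omission of 7 libraries whose TMM factor was below 0.9 of the median of their group.

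Replicate numbers were checked for pairing: correlations of deviations of same-numbered libraries ran from −0.65 to 0.72, and all exceeded 0.1 in 2 of 24 comparisons, so no block was used in the results given.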

Additional observations from a re-analysis of the deposited data

Results flagged for a closer look

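In 5 cases the PKP4-KO effect differed between 72 h and 24 h by the interaction test itself (edgeR's quasi-likelihood test, Benjamini-Hochberg adjusted). For Ndufa4l2 the log2 effect was larger at 72 h by 5.56 in LCM (SE 1.30, adjusted p = 0.0085) and by 5.65 in HCM (SE 2.07, adjusted p = 0.043). The call in LCM was lost without WT replicate 1 of 24 h LCM (adjusted p = 0.080), and that in HCM was lost in 9 of 12 fits with 1 library left out, with an adjusted p of up to 0.23 without WT replicate 2 of 24 h HCM.

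In HCM the effect on Ndufaf6, an assembly factor of complex I, was lower at 72 h (difference −0.84, SE 0.25, adjusted p = 0.014). The median of the tested genes within 5 Mb of it was −0.51 in this interaction, and −0.33 remained with that subtracted. Ndufaf6 stood at 5.97, 6.10 and 7.69 CPM in WT and 15.8, 15.4 and 12.6 CPM in PKP4-KO at 24 h, and at 9.56, 10.7 and 7.89 CPM against 11.2, 11.2 and 12.6 CPM at 72 h. For Ndufaf1, another assembly factor, the effect was larger at 72 h by 0.67 (SE 0.19, adjusted p = 0.010), with 17.8, 14.9 and 18.8 CPM in WT against 17.0, 16.4 and 15.9 CPM in PKP4-KO at 24 h, and 11.6, 14.0 and 14.2 CPM against 22.3, 21.4 and 17.1 CPM at 72 h. Without TMM factors the value of Ndufaf1 was −0.15. For Sdhd the effect was lower at 72 h (difference −0.51, adjusted p = 0.028). The median of the tested genes within 5 Mb of Sdhd was −0.23, and −0.29 remained with that subtracted.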

How the results depend on the processing

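Short genes, library composition and the choice of scale limit these results. Of 2687 values of single genes under the alternatives, 2310 stayed the same, 283 lost and 3 gained the call, 63 moved and 28 reversed. A value stayed the same if it kept direction and side of the threshold. With the median of neighbours subtracted, which gives no p-value, it did so if that median was smaller in size than the SE. Numbers of genes called out of 90 that changed by more than 1.5 times follow, with the reported value in brackets, and the cause was not tested.

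DESeq2 gave, for HCM against LCM, 1 (0) in PKP4-KO at 24 h, 39 (24) at 72 h, and 3 (1) and 10 (6) in WT at 24 h and 72 h, and 14 (9) for 72 h against 24 h in PKP4-KO LCM. At least 10 counts in every library gave, for HCM against LCM at 24 h, 2 (1) in WT and 1 (0) in PKP4-KO, and 0 (1) for time in Rescue LCM and for the time interaction in LCM. No filter gave 0 (1) for HCM against LCM at 24 h in WT and Rescue, 4 (7) and 6 (10) for Rescue against WT at 24 h HCM and LCM, and 1 (4) for the time interaction in HCM.

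Without TMM factors PKP4-KO against WT gave 27 (54) at 72 h HCM and 18 (37) at 72 h LCM, Rescue against WT 12 (7) at 24 h HCM, HCM against LCM 4 (1) and 10 (6) in WT at 24 h and 72 h and 2 (1) in Rescue at 24 h, time 0 (4) in WT LCM, 41 (70) in PKP4-KO HCM and 3 (1) in Rescue LCM, the time interaction 2 (1) in LCM and 18 (4) in HCM, and the calcium interaction 2 (0) at 72 h. The share of higher calls over all tested genes went from 51.0% to 66.2% and from 54.2% to 43.9% for Rescue against WT at 24 h HCM and LCM, from 56.0% to 76.9% for Rescue against PKP4-KO at 72 h LCM, from 54.3% to 24.8%, 49.6% to 25.6%, 39.5% to 8.2% and 52.0% to 63.2% for HCM against LCM in WT at 24 h, WT, PKP4-KO and Rescue at 72 h, from 53.2% to 27.3%, 51.3% to 30.03%, 47.6% to 20.9% and 43.6% to 12.6% for time in WT LCM, WT HCM, PKP4-KO LCM and PKP4-KO HCM, and from 40.5% to 9.8% for the time interaction in HCM.

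The offset for gene length gave 19 (12), 8 (4) and 3 (1) for time in Rescue HCM, WT LCM and Rescue LCM, 12 (7) and 2 (1) for HCM against LCM in Rescue at 72 h and 24 h, 39 (17) for Rescue against PKP4-KO at 24 h HCM, 21 (11) for Rescue against WT at 72 h LCM and 2 (1) for the time interaction in LCM. It moved the share of higher calls from 55.8% to 45.6% for Rescue against PKP4-KO and from 53.9% to 40.3% for Rescue against WT at 72 h HCM.

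Fits of the compared groups alone gave 11 (20) and 63 (37) for PKP4-KO against WT at 24 h HCM and 72 h LCM, 4 (11), 6 (10) and 3 (7) for Rescue against WT at 72 h LCM, 24 h LCM and 24 h HCM, 25 (41) for Rescue against PKP4-KO at 72 h LCM, 53 (24), 2 (7), 10 (6) and 2 (1) for HCM against LCM in PKP4-KO, Rescue and WT at 72 h and Rescue at 24 h, and 1 (9), 0 (10), 0 (1), 16 (4) and 58 (12) for time in PKP4-KO LCM, WT HCM, Rescue LCM, WT LCM and Rescue HCM.

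In 22 of 72 cases a library correlated best with its own number. All 3 same-numbered correlations exceeded 0.1 for HCM against LCM in WT at 24 h and for Rescue against PKP4-KO at 72 h LCM, where the replicate block gave 1 (1) and 42 (41) genes called, and the labels name no shared source. In the other comparisons same-numbered libraries share only a number. The replicate block gave 2 (4) for time in WT LCM, and together with the length offset 3 (1), 19 (12) and 7 (4) for time in Rescue LCM, Rescue HCM and WT LCM, 2 (1) for HCM against LCM in Rescue at 24 h, 36 (17) and 25 (16) for Rescue against PKP4-KO at 24 h HCM and LCM, 23 (37) for PKP4-KO against WT and 20 (11) for Rescue against WT at 72 h LCM.

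Without the 7 libraries with a low TMM factor PKP4-KO against WT gave 82 (54), 58 (37) and 37 (20) at 72 h HCM, 72 h LCM and 24 h HCM, Rescue 58 (11) against WT and 83 (41) against PKP4-KO at 72 h LCM, HCM against LCM 2 (1), 14 (6) and 72 (24) in WT at 24 h, WT and PKP4-KO at 72 h, time 58 (10), 22 (4), 39 (9) and 42 (12) in WT HCM, WT LCM, PKP4-KO LCM and Rescue HCM, the time interaction 57 (4) in HCM and 3 (1) in LCM, and the calcium interaction 50 (0) at 72 h.

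With 1 library left out, PKP4-KO against WT gave 15 to 25 at 24 h HCM, 19 to 30 at 24 h LCM (19 without WT replicate 1), 18 to 38 at 72 h LCM (18, 23 and 22 without WT replicate 2, WT replicate 3 and PKP4-KO replicate 2) and 31 to 72 at 72 h HCM (31 without WT replicate 1 or 2). Rescue against PKP4-KO gave 27 to 81 at 72 h LCM (27 and 81 without Rescue replicate 1 and 2) and 85 to 87 at 72 h HCM, and Rescue against WT 3 to 6 at 24 h HCM, 3 to 10 at 24 h LCM, 29 to 72 at 72 h HCM and 7 to 15 at 72 h LCM. HCM against LCM gave 0 to 1 in WT and Rescue at 24 h, 2 to 7 in WT, 9 to 48 in PKP4-KO and 4 to 13 in Rescue at 72 h. Time gave 0 to 5 in WT LCM, 5 to 25 in WT HCM, 3 to 19 in PKP4-KO LCM, 42 to 77 in PKP4-KO HCM and 8 to 10 in Rescue HCM, and the time interaction 0 to 1 in LCM and 2 to 10 in HCM.

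With exon lengths of the reference annotation the levels per kb were 66.0 (147) for Ndufv2, 4.98 (7.37) for Ndufs1, 42.8 (85.0) for Cox5a, 16.2 (32.7) for Sdha, 47.0 (91.4) for Uqcrc2 and 54.7 (114) for Sdhd. They were 64.9 (270.2) for Uqcr10 and 1.25 (2.54) for Ndufb2.

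Signs turned as follows. Without TMM factors PKP4-KO against WT at 72 h HCM became −0.10 for Ndufa10, −0.024 for Ndufs3, −0.21 for Ndufs7 and −0.72 for Sdha, and Ndufaf1 became −0.15 in the time interaction in HCM. Sdha at 72 h HCM became −0.039 without the 7 libraries and ran from −0.0573 to 0.20 with 1 library left out, lowest without WT replicate 3 and also below 0 without PKP4-KO replicate 3. Sdhd in Rescue against PKP4-KO at 72 h HCM became 0.36 without TMM factors and 0.13 with the length offset, with or without the block. With the median of neighbours subtracted Ndufaf5 in PKP4-KO against WT became −0.30 in HCM at 24 h and, in LCM, −0.014 at 24 h and −0.22 at 72 h, Ndufaf4 became 0.62 for time in PKP4-KO HCM and 0.25 for Rescue against WT at 24 h LCM, and Ndufaf6 became 0.052 for Rescue against WT at 72 h LCM. Cox7a2l in PKP4-KO against WT ran from −0.35 to 0.058 in HCM and from −0.090 to 0.30 in LCM at 24 h with 1 library left out (0.058 without WT replicate 2, −0.090 without PKP4-KO replicate 1). It became −0.11 at 24 h LCM without TMM factors or without the 7 libraries, −0.59 at 72 h HCM without TMM factors and −0.30 with the length offset, and −0.016 without TMM factors, −0.024 with the length offset and −0.025 with block and offset at 72 h LCM.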

Other observations

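On chromosome 4, between positions 106508266 and 109388494 of GRCm39, 45 tested genes lay close together, in a stretch whose bounds were chosen after the values were seen, among them Coa7, Mrpl37 and Cpt2, a carnitine palmitoyltransferase of the inner mitochondrial membrane. In PKP4-KO against WT their median log2 fold change was 2.17 at 24 h HCM, 2.13 at 24 h LCM, 2.29 at 72 h LCM and 2.14 at 72 h HCM. In Rescue against WT the medians were −0.04, 0.01, −0.11 and 0 in the same order. None of the 97 oxidative phosphorylation genes lies in this stretch. The cause was not tested.

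The 80 tested genes of the cytosolic ribosome had 6, 12, 22 and 52 members higher in PKP4-KO than in WT at 24 h HCM, 24 h LCM, 72 h LCM and 72 h HCM, with medians of 0.16, 0.74, 1.0 and 1.36, and 1 lower at 24 h HCM. In Rescue against PKP4-KO at 72 h HCM all 80 were lower, with a median of −2.68, and of 77 mitochondrial ribosomal protein genes 71 were lower. The part of these changes in those of the respiratory genes was not tested.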
